A study of Homo sapiens with 75 samples.

Results

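AP-1 is a group of paired transcription factors built from Fos and Jun proteins. The genes of 8 of its subunits, ATF3, FOS, FOSB, FOSL1, FOSL2, JUN, JUNB and JUND, are described here over all arrays of the series. They were found by gene symbol, as every probe set whose single symbol is one of these names, which gave 8 of 19775 genes and 20 of 54675 probe sets. FOSL2 had 5 probe sets, JUN and JUND had 4 each, ATF3 had 3, and the other members had 1. ATF3 and JUN lie on chromosome 1, FOSL2 on 2, FOSL1 on 11, FOS on 14, and FOSB, JUNB and JUND on 19. Each gene is given by its brightest probe set, averaged over all 75 arrays, unless another is named. Total RNA came from 5 human lines, TK6 (B lymphoblastoid cells), U2OS (osteosarcoma), BJ (skin fibroblasts), HepG2 (hepatoma) and G361 (melanoma), with 1 array per sample. In each line 3 arrays belong to each of 5 groups: cells given 5 Gy of ionising radiation and collected 3 h or 6 h later, and untreated cells collected at 0 h, 3 h and 6 h. Per the labels, all cells grew in DMEM with fetal calf serum, and control cells were mock-irradiated and otherwise handled like the irradiated ones. The design sets irradiated cells against untreated cells of the same time.

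A Fos protein binds DNA only as a dimer, usually with a Jun protein, while Jun proteins also pair with each other and with relatives such as ATF3. FOS, FOSB, JUN and JUNB are classical immediate early genes: serum, growth factors, stress and DNA damage switch them on briefly through MAP kinases, which act on factors already sitting at their promoters. ATF3 is a stress-induced member of the ATF/CREB branch, is often a repressor, and is known as a direct target of p53, the transcription factor that DNA damage activates. FOSL1 and FOSL2 follow more slowly and accumulate under lasting growth signals, and JUND is made steadily in many cell types.

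The stretches of 250 bases before the annotated starts of 4 members are printed because each holds a match to a sequence that AP-1 or ATF/CREB proteins bind. They are RefSeq sequences of GRCh38.p14, read 5' to 3' in the direction of the gene. ATF3 is the window before the first of its starts, chr1:212565157-212565406 on the + strand, JUN is chr1:58784048-58784297 on the - strand, FOSB is chr19:45467746-45467995 on the + strand and JUND is chr19:18281623-18281872 on the - strand. Capitals mark the match.
ATF3: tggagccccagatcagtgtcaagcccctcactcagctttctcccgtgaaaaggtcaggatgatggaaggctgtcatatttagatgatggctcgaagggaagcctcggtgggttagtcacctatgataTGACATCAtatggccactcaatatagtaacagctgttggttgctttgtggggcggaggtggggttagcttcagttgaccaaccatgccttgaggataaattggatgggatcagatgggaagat
JUN: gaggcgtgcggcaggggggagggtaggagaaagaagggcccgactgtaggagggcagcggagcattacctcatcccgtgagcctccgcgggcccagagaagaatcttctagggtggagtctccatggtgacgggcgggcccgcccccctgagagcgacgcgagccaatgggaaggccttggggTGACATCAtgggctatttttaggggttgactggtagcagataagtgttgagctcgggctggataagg
FOSB: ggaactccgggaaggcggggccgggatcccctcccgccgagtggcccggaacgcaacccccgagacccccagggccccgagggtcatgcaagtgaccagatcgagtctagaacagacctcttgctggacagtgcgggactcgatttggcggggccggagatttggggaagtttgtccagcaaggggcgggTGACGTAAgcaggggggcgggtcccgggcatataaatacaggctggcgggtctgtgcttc
JUND: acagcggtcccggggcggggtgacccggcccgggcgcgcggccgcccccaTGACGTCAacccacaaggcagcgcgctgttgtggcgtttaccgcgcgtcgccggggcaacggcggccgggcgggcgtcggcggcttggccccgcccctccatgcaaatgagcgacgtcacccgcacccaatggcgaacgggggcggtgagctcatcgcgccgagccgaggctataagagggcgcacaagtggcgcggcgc

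ATF3 and JUN held the same letters, TGACATCA, a variant AP-1 site known from the JUN promoter. It lay 123 to 116 bases before the start in ATF3 and 67 to 60 bases before it in JUN, and was found on either strand (TGATGTCA on the other) in 2.37% of 35116 such windows over all genes. JUND held TGACGTCA, the cyclic AMP response element (CRE), which was in 1.65% of windows. FOSB held TGACGTAA, a variant of the CRE added to the search after the data were seen, which with its reverse TTACGTCA was in 0.37% of windows. The letters of a TATA box, searched as TATAAA on both strands, were in 10.7% of all windows. They lay 33 to 28 bases before the start in FOS, 30 to 25 in FOSB and 31 to 26 in JUNB. The match at the second start of ATF3 lay farther off, 230 to 225 bases before it. The classical AP-1 site TGACTCA, searched on both strands (4.2% of windows), and the serum response element (1.16%) matched in none of the windows of the 7 members searched, and the window of FOSL2 held no match to any sequence searched. FOSL1 was not searched. A match is a run of letters and not evidence of binding. A missing match does not show that a gene lacks such a site, because bases farther before the start and other spellings were not searched.

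Correlations within groups were 0.970 to 0.996, and array medians lay between 3.91 and 4.07 log2. Whether the 3 arrays of a group came from separate cultures is not stated in the labels, and p-values then reflect only how far these arrays scatter, which may be technical. Tissue markers were highest in the labelled line for 7 of 7 melanocyte genes in G361, 9 of 9 B lymphoid genes in TK6, 12 of 12 fibroblast genes in BJ and 2 of 6 osteoblast genes in U2OS. Arrays labelled HepG2 were also highest for 2 of the 6 osteoblast genes, with a mean of 5.04 log2, beside 5.10 in U2OS. Of 10 hepatocyte markers only 1 was highest in the arrays labelled HepG2, where their mean was 3.76 log2 and albumin (ALB) stood at 2.77 log2. In arrays labelled U2OS 5 of the 10 were highest, with a mean of 4.30 log2, among them SERPINA1 (8.57 log2, against 3.26 in arrays labelled HepG2). The osteoblast and hepatocyte markers thus did not part the arrays by the labels U2OS and HepG2, and U2OS is used below as a label. The irradiation labels were checked with the mean log2 level of 23 p53 targets, ATF3 not among them, minus the 0 h mean of the line. This score was 0.52 to 1.63 in the 18 irradiated arrays of TK6, U2OS and BJ and at most 0.22 in their untreated arrays. In arrays labelled HepG2 it was 0.00 to 0.20 when labelled irradiated at 3 h, against 0.01 to 0.33 when labelled untreated, and 1.02 to 1.11 when labelled irradiated at 6 h, against 0.85 to 0.90 when labelled untreated. In arrays labelled G361 it was -0.05 to 0.15 when labelled irradiated at 3 h and 0.40 to 0.72 when labelled irradiated at 6 h. Those labelled untreated at 3 h had 0.12 in replicates 1 and 2 and 0.67 in replicate 3, and those at 6 h had 0.79, 0.80 and 0.01. Results of these lines are therefore given by what the arrays are labelled. The GAPDH probe sets for the 5' and 3' ends, a measure of RNA integrity, differed by -0.94 to -0.68 log2 in the 5 replicate 1 arrays labelled G361, against -0.18 to 0.13 in the other 70.

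ATF3 was higher in irradiated than in untreated cells of the same time in TK6 and U2OS at both times and in BJ at 3 h. It was the member called in 5 of its 10 such comparisons. In TK6 at 3 h its levels were 9.04, 8.96 and 9.08 log2 in irradiated cells, against 7.03, 6.67 and 7.43 log2 in untreated cells. At 6 h they were 9.28, 9.03 and 8.94 log2 in irradiated cells and 7.06, 6.63 and 6.96 log2 in untreated cells. All irradiated arrays were above all untreated ones at both times. The rise was 3.94-fold at 3 h (1.98 log2, SE 0.19, n = 3 arrays a group, limma adjusted p = 2.226e-06) and 4.60-fold at 6 h (2.20 log2, SE 0.19, adjusted p = 7.01e-07). Here and throughout, called means a limma adjusted p under 0.05 after adjustment over every gene tested in that line. ATF3 was the 1 member of 8 called in TK6 at each time, where limma called 3.99% of all genes at 3 h (1.88% as higher) and 6.23% at 6 h (4.01% as higher). These are whole cultures, in which more cells with a transcript and more of it per cell cannot be told apart.

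In U2OS at 3 h ATF3 stood at 9.29, 9.0 and 9.07 log2 in irradiated cells, against 6.85, 7.18 and 7.42 log2 in untreated cells. At 6 h it stood at 9.92, 9.59 and 9.55 log2 in irradiated cells and at 8.13, 7.54 and 7.60 log2 in untreated cells. The groups did not overlap at either time. Irradiated cells at 6 h stood 0.57 log2 above those at 3 h without a call (limma adjusted p = 0.7843, with 0 of 8 members and 0.0614% of genes called). At an unadjusted p under 0.05 was 1 member, ATF3, beside 670 of 14654 genes. The rise was 3.91-fold at 3 h (1.97 log2, SE 0.19, limma adjusted p = 4.743e-05) and 3.81-fold at 6 h (1.93 log2, SE 0.19, adjusted p = 6.338e-05). ATF3 was again the 1 member called of 8 at each time, with 0.0887% of all genes called at 3 h and 0.641% at 6 h. The median difference of all genes in U2OS at 3 h was 0.10 log2, and 0.01 after quantile normalization, under which ATF3 was still called.

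In BJ fibroblasts, where ATF3 was lowest of the 5 lines, its levels at 3 h were 5.12, 4.87 and 5.01 log2 in irradiated cells, against 3.80, 4.16 and 3.34 log2 in untreated cells. The difference was 2.35-fold (1.23 log2, SE 0.24, limma adjusted p = 0.04691), and ATF3 was the 1 member called of 8 beside 0.18% of all genes. It was past the threshold by little: the adjusted p was 0.07996 without a trend of variance on level, 0.08798 with the compared arrays alone, and 0.1084 to 0.4602 without any 1 of 5 of the 6 arrays compared. Mean ATF3 in untreated cells at 0 h (4.50 log2) lay between the untreated (3.76) and irradiated (5.00) means at 3 h. Neither 3 h group was called against 0 h by limma. At 6 h the levels were 5.20, 5.26 and 5.50 log2 in irradiated cells and 4.21, 5.02 and 4.89 log2 in untreated cells. These did not overlap, but the difference of 0.61 log2 (SE 0.24) was not called (adjusted p = 0.7218), and 0 of 8 members were called beside 0.235% of all genes. The effect at 6 h was 0.62 log2 below that at 3 h, a difference that was not called (-0.62, SE 0.34, limma adjusted p = 0.9998).

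Arrays labelled HepG2 and G361 showed no call for ATF3 in this comparison. At 3 h arrays labelled HepG2 stood at 6.80, 6.01 and 5.72 log2 when labelled irradiated, against 6.43, 6.69 and 6.45 log2 when labelled untreated, a difference of -0.35 log2 (SE 0.21, limma adjusted p = 0.9173). At 6 h they stood at 7.40, 7.35 and 7.30 log2 when labelled irradiated and at 8.09, 8.16 and 7.98 log2 when labelled untreated, so every array labelled untreated was the higher. The difference at 6 h was -0.73 log2 (SE 0.21, unadjusted p = 0.002539, limma adjusted p = 0.3071), and it was called lower with the compared arrays alone (adjusted p = 0.03251). Without replicate 1 of every group ATF3 was called lower at 3 h (-0.70 log2, adjusted p = 0.003053) and at 6 h (-0.75, adjusted p = 0.003166). Limma then called 939 and 372 genes in all, against 0 and 1 with all arrays. Without replicate 2 or 3 of every group it called 0 members and 0 genes at both times. In the 6 h arrays the score of p53 targets was 1.02 to 1.11 when labelled irradiated and 0.85 to 0.90 when labelled untreated. Both were above the other 9 arrays labelled HepG2, and what the score shares with the levels of ATF3 was not tested.

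In arrays labelled G361 at 3 h ATF3 stood at 6.39, 5.61 and 5.70 log2 when labelled irradiated, against 6.12, 6.12 and 6.80 log2 when labelled untreated. At 6 h it stood at 6.51, 6.30 and 6.05 log2 when labelled irradiated and at 7.17, 7.33 and 5.46 log2 when labelled untreated. The 3 highest of all 15 arrays labelled G361 were thus labelled untreated, replicates 1 and 2 at 6 h and replicate 3 at 3 h. Their scores of p53 targets were 0.79, 0.80 and 0.67, while irradiated replicate 2 at 6 h had a score of 0.72 with ATF3 at 6.30 log2. The differences were -0.45 log2 at 3 h and -0.36 log2 at 6 h (SE 0.39 each, limma adjusted p = 0.9999 each). Beside them, limma called 0 members and 0% of all genes at both times in arrays labelled G361, with 106 and 226 genes at an unadjusted p under 0.05. In arrays labelled HepG2 it called 0 members beside 0% of all genes at 3 h (809 at an unadjusted p under 0.05) and 0.00696% at 6 h.

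**Figure D1:**
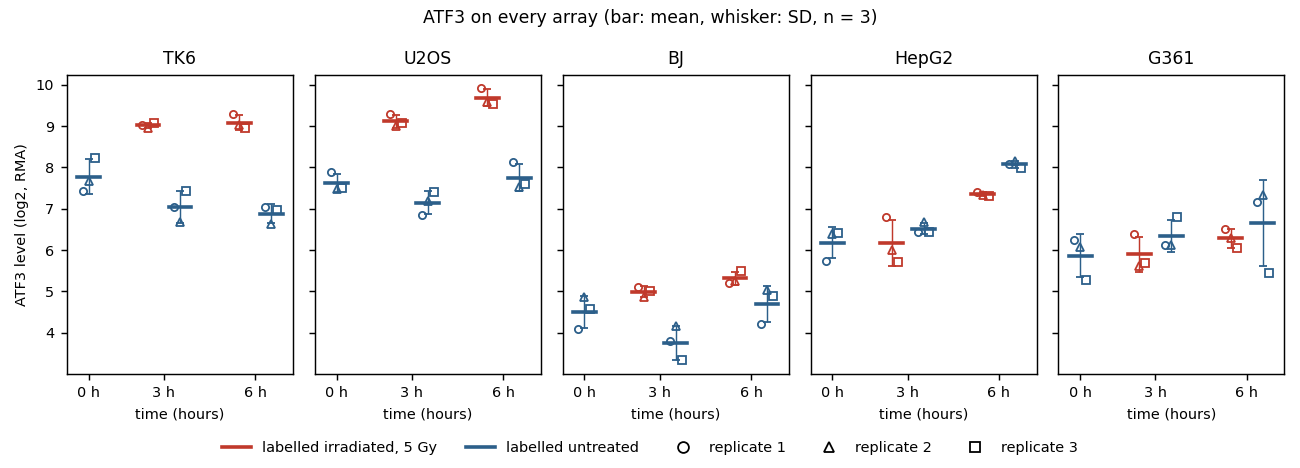
ATF3 level (log2, RMA) on each of the 75 arrays by cell line, time in hours and label, with the mean (bar) and SD (whisker) of 3 arrays. Irradiated arrays lay above untreated arrays of the same time in TK6, U2OS and BJ, and arrays labelled untreated at 6 h were highest in HepG2.

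**Figure D2:**
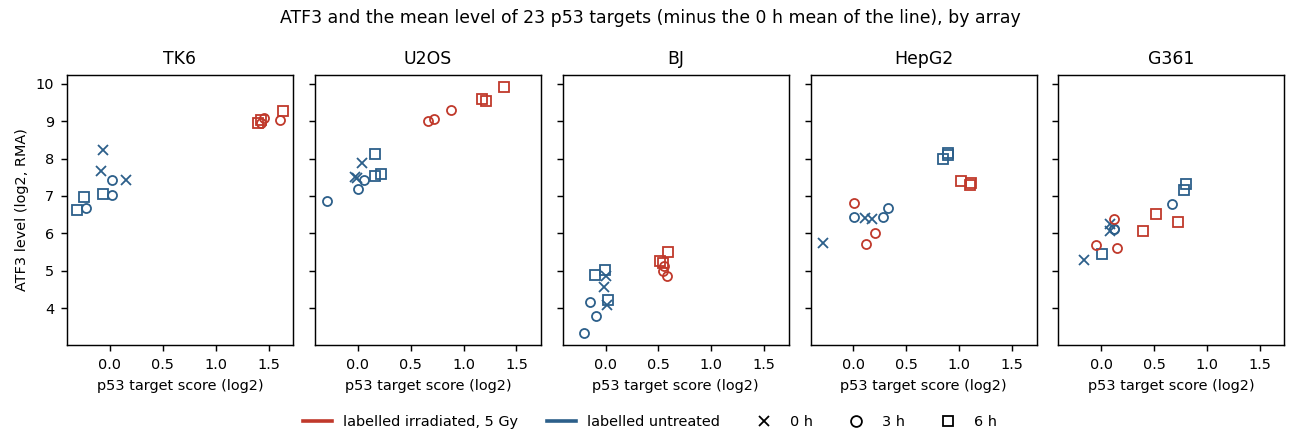
ATF3 level (log2, RMA, y axis) against the mean level of 23 p53 targets minus the 0 h mean of the line (log2, x axis), 1 point per array in each of 5 lines. In arrays labelled G361 the 3 points highest on the y axis are labelled untreated and stand at 0.67 to 0.80 on the x axis, where an irradiated array at 0.72 lies lower on the y axis.

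The difference in ATF3 between arrays labelled irradiated and untreated was not of the same size in all lines. Arrays labelled HepG2 and G361 enter the test and the averages below. Their scores of p53 targets did not part by label as in TK6, U2OS and BJ. A moderated F test over all 75 arrays gave F = 17.92 at 3 h (adjusted p = 5.104e-07, rank 24 of 16027 genes) and F = 21.54 at 6 h (adjusted p = 2.988e-08, rank 18), with 1.34% and 1.83% of genes called. No other member was called (lowest adjusted p = 0.9593, JUND at 3 h). Set against the average over the remaining 4 lines, the effect in TK6 was higher by 1.38 log2 at 3 h and 1.84 at 6 h (SE 0.32 each, limma adjusted p = 0.004933 and 5.516e-05, beside 1.97% and 2.13% of genes called). U2OS was higher by 1.50 at 6 h (adjusted p = 0.008625) and stood at 1.36 at 3 h without a call (adjusted p = 0.0676), and BJ stood at 0.45 and -0.15 without a call. Arrays labelled HepG2 were lower by 1.53 and 1.83 (adjusted p = 0.01567 and 0.002321), and arrays labelled G361 were lower at 3 h (-1.66, adjusted p = 0.002928) and at -1.37 at 6 h without a call (adjusted p = 0.06323). Between 3 h and 6 h the effect differed for 0 of 8 members in any line by limma (0 at an unadjusted p under 0.05), where 0.295% of genes were called in TK6 and 0% in the other lines. In those other lines 102 to 371 genes had an unadjusted p under 0.05.

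The 3 probe sets of ATF3 did not move alike. Probe set 1554980_a_at rose in TK6 by 1.20 log2 at 3 h and 1.31 at 6 h (limma adjusted p = 0.002924 and 0.001238), less than the main probe set 202672_s_at. In U2OS it stood at 0.95 and 1.35 log2 (adjusted p = 0.9094 and 0.151) and in BJ at 3 h at 0.15 (adjusted p = 0.9999), and none of these were called. Probe set 1554420_at averaged 3.01 to 3.30 log2 and was below the level limit for testing in all 5 lines. With the mean of the 3 probe sets ATF3 was not called in U2OS at 3 h (0.97 log2, adjusted p = 0.1188). What each probe set detects was not tested.

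Over the 75 arrays, with each line's mean taken off, the genes whose levels ran most like ATF3 were GDF15, a stress cytokine gene (Pearson r = 0.888), the phosphatase gene PPM1D (0.885), the sestrin genes SESN1 and SESN2 (0.88 each) and the growth arrest gene GADD45A (0.872), of 12970 genes. Of these 5 genes, all but GADD45A are in the list of p53 targets used for the score. The 75 arrays share their lines and treatments, so these values are a description. No gene ran as closely with the other members, whose highest r lay between 0.585 for JUN (with SPRED2, an inhibitor of Ras signalling) and 0.724 for JUND (with the death receptor gene TNFRSF10B). FOS ran most like PAM (0.642) and DUSP1, the gene of a MAP kinase phosphatase (0.613). Among the members themselves the highest values were FOSL2 with JUND (0.654), ATF3 with JUND (0.519), FOS with FOSB (0.488) and FOSL2 with JUNB (0.482), while ATF3 with JUN was at -0.08.

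The Fos and Jun genes were not called after irradiation. In 70 comparisons of the 7 members other than ATF3, limma called 0, with 2 at an unadjusted p under 0.05, differences from -0.56 to 0.47 log2 and a lowest adjusted p of 0.4036. This does not show that they were unaffected: the 95% intervals reached from -0.92 to 1.05 log2, both for FOS.

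FOS, the founding member of its family, showed the most scatter. In TK6 it stood at 4.06, 4.03 and 4.31 log2 in irradiated cells at 3 h, against 3.70, 3.31 and 4.11 log2 in untreated cells. At 6 h it stood at 4.34, 3.76 and 4.15 log2 in irradiated cells and 3.85, 3.00 and 4.14 log2 in untreated cells. The groups overlapped at both times, and both differences were 0.42 log2 (SE 0.30, limma adjusted p = 0.6357 and 0.5587). The largest difference of FOS was in arrays labelled G361 at 6 h, at 6.34, 5.81 and 6.30 log2 when labelled irradiated and 6.82, 6.75 and 6.56 log2 when labelled untreated. These did not overlap, but the difference of -0.56 log2 (SE 0.17) was not called (unadjusted p = 0.004524, adjusted p = 0.9999). In U2OS, BJ and arrays labelled HepG2, FOS averaged 3.75 to 4.01 log2 over the line, at the 46.2 to 50.3 percentile of probe sets, where single arrays such as irradiated U2OS replicate 1 at 6 h (5.19 log2, against 3.72 and 3.46 in replicates 2 and 3) stood apart.

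FOSB, a close relative of FOS, was near the level limit in every line but TK6, at the 40.5 to 43.7 percentile of probe sets, and its differences lay between -0.27 and 0.33 log2. FOSL1 (FRA-1), the Fos relative tied to growing and migrating cells, differed by -0.39 to 0.47 log2. FOSL2 (FRA-2), a slower relative, had differences of 0.00 to 0.26 log2 on its main probe set in the 10 comparisons. In TK6 at 6 h, FOSL2 probe set 218880_at gave a difference of 0.66 log2 (SE 0.18, limma adjusted p = 0.0284), and the mean of the 5 probe sets gave 0.42 (adjusted p = 0.01724). The main probe set 228188_at gave 0.20 (SE 0.23, adjusted p = 0.7859), at 4.50, 4.15 and 4.89 log2 in irradiated cells and 4.54, 4.06 and 4.35 log2 in untreated cells, which overlapped.

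JUN, the first Jun gene described and the usual partner of FOS, differed by -0.33 to 0.28 log2 over the 10 comparisons. In TK6 at 3 h its levels were 6.13, 5.99 and 5.96 log2 in irradiated cells and 6.69, 6.20 and 6.16 log2 in untreated cells. The groups did not overlap, but the difference of -0.33 log2 (SE 0.20) was not called (limma adjusted p = 0.5529). JUNB, which can oppose JUN, differed by -0.26 to 0.21 log2, and JUND by -0.10 to 0.47. The upper value of JUND was that of U2OS at 3 h, with 10.80, 10.27 and 10.46 log2 in irradiated cells and 9.62, 10.26 and 10.24 log2 in untreated cells (SE 0.19, unadjusted p = 0.02129, adjusted p = 0.9094). Untreated replicate 1 was the low array there, as it was for FOSL1 (5.35 log2, against 6.49 and 6.33 in replicates 2 and 3) and FOSL2 (7.05 log2, against 8.19 and 8.07).

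**Figure D3:**
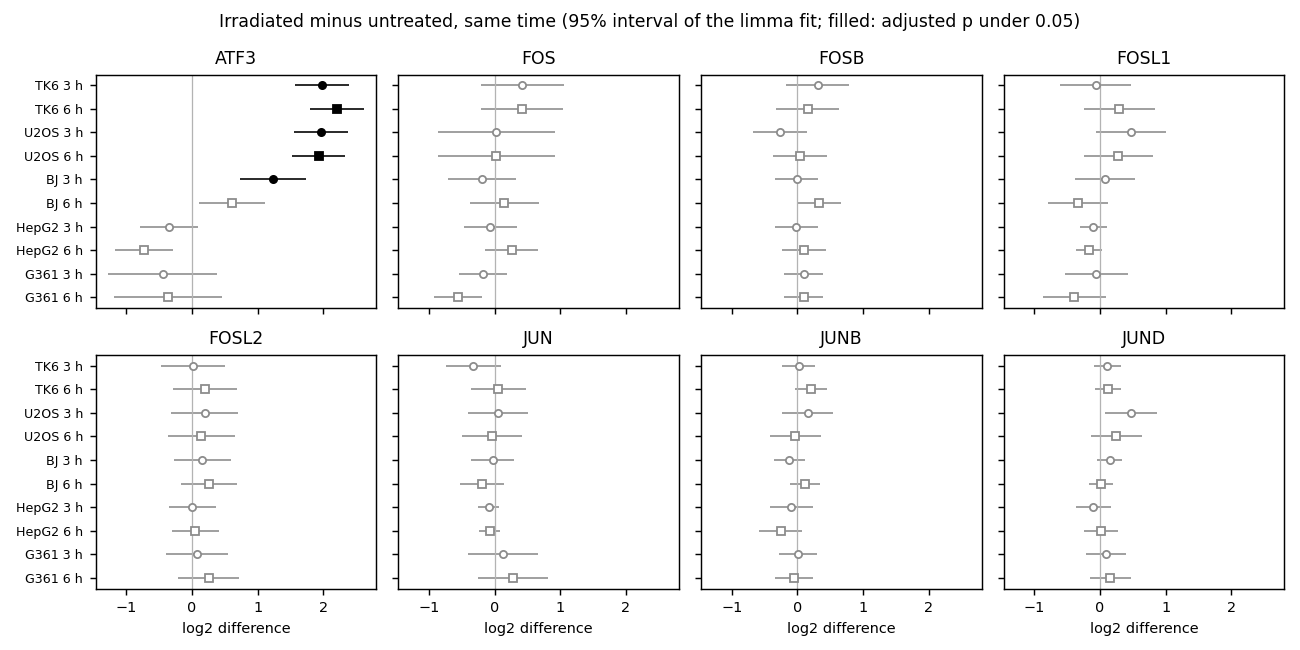
Difference between irradiated and untreated arrays of the same time (log2, x axis) for the 8 members in each line at 3 h (circles) and 6 h (squares), with 95% intervals of the limma fit. Filled points have an adjusted p under 0.05, and all 5 of them are ATF3.

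The members moved with time in untreated TK6 cells. At 6 h, 7 of 8 members, all but FOSL1, were lower than at 0 h, where limma called 5.16% of all genes and 3.35% as lower. At 3 h, FOS and FOSB, 2 of 8, were lower, beside 1.81% of genes called and 1.08% as lower. Both comparisons share the 0 h arrays. The tests of the irradiation effect above use untreated cells of the same time and not these arrays.

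FOSB, which serum and stress induce for a short time, had the largest fall of the 8. It stood at 3.54, 3.77 and 3.88 log2 in untreated TK6 cells at 3 h and at 3.76, 3.59 and 3.84 log2 at 6 h, against 4.56, 5.56 and 5.57 log2 at 0 h. No later array reached a 0 h array, and the level was 2.83-fold lower at 3 h and 2.83-fold lower at 6 h (SE 0.23 log2, limma adjusted p = 0.003226 at 3 h and 0.001029 at 6 h). FOS stood at 3.70, 3.31 and 4.11 log2 at 3 h and at 3.85, 3.00 and 4.14 log2 at 6 h, against 4.44, 5.07 and 5.64 log2 at 0 h. Its changes were -1.34 log2 at 3 h and -1.39 at 6 h (SE 0.30, adjusted p = 0.029 and 0.0119), again with no overlap, although the 0 h arrays spanned more than a log2 unit.

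The other falls at 6 h were smaller. ATF3 fell by 0.89 log2 (SE 0.19, limma adjusted p = 0.0124), with 7.06, 6.63 and 6.96 log2 at 6 h against 7.42, 7.67 and 8.24 log2 at 0 h. FOSL2 fell by 0.88 (SE 0.23, adjusted p = 0.03298), JUN by 0.76 (SE 0.20, adjusted p = 0.03539) and JUNB by 0.43 (SE 0.12, adjusted p = 0.03848). JUND fell by 0.59 (SE 0.10, adjusted p = 0.00173), with 10.00, 10.04 and 10.03 log2 at 6 h against 10.50, 10.68 and 10.66 log2 at 0 h. FOSL1, at the level of scarcely expressed genes in TK6, stood at 3.51, 4.0 and 3.51 log2 at 6 h and 4.26, 3.96 and 3.31 log2 at 0 h and was not called (-0.17 log2, adjusted p = 0.8403).

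These counts rest on single arrays, which were left out one by one as a choice made after the data were seen. Without untreated replicate 2 at 6 h, or without replicate 3 at 0 h, 2 members were called at 6 h, FOSB and JUND, and without any other 1 of the 6 arrays 4 to 7 were called. At 3 h the count was 1, FOSB, without untreated replicate 2 at 3 h or replicate 2 or 3 at 0 h, and 2 or 3 otherwise. Without replicate 2 or replicate 3 of every group, 0 members were called at 6 h by limma, together with 29 and 14 genes in all. Other tested probe sets of JUN gave -0.22 (201465_s_at, adjusted p = 0.7351) and -0.04 (213281_at, adjusted p = 0.973) at 6 h. ATF3 on probe set 1554980_a_at gave -0.31 (adjusted p = 0.5737), so the falls of JUN and ATF3 were called on their main probe sets alone. For FOSL2, probe set 225262_at was also called (-1.66, adjusted p = 0.002495), and 218880_at (-0.49), 218881_s_at (-0.36) and 205409_at (-0.29) were not. For JUND, probe set 214326_x_at was also called, by little (-0.69, limma adjusted p = 0.04765), and 203751_x_at was not (-0.59, adjusted p = 0.1787).

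Against the 0 h arrays, irradiated TK6 cells differed in both directions. ATF3 was higher by 1.25 log2 at 3 h and 1.31 at 6 h (SE 0.19 each, limma adjusted p = 0.0003006 and 0.0001836). FOSB was lower by 1.19 and 1.34 (SE 0.23 each, adjusted p = 0.00203 and 0.0006418), JUNB was lower at 3 h (-0.39, adjusted p = 0.03997), and FOS (-0.97, adjusted p = 0.03723), JUN (-0.70, adjusted p = 0.02498, but 0.22 with probe set 201465_s_at) and JUND (-0.47, adjusted p = 0.003029) were lower at 6 h. That made 3 of 8 members called at 3 h and 5 of 8 at 6 h, beside 10.5% and 14.2% of all genes. JUND at 6 h was not called with probe sets 214326_x_at (-0.33, adjusted p = 0.3121) and 203751_x_at (-0.40, adjusted p = 0.3058) or with the mean of its probe sets (-0.31, adjusted p = 0.1165). Without replicate 2 of every group only ATF3 was called at each time, and without replicate 3 ATF3 at 3 h and ATF3 and FOSB at 6 h. With the replicate number as a block, FOS, FOSL2 and JUN were also called lower at 3 h (adjusted p = 0.008201, 0.00495 and 0.009874) and FOSL2 at 6 h (0.003208). These comparisons use the same 0 h arrays as the ones above. Between 6 h and 3 h in irradiated TK6 cells limma called 0 of 8 members and 2.24% of all genes. At an unadjusted p under 0.05 was 1 member, JUND, beside 2005 of 14227 genes. With the replicate block JUND was called lower at 6 h (-0.34 log2, limma adjusted p = 0.004991).

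**Figure D4:**
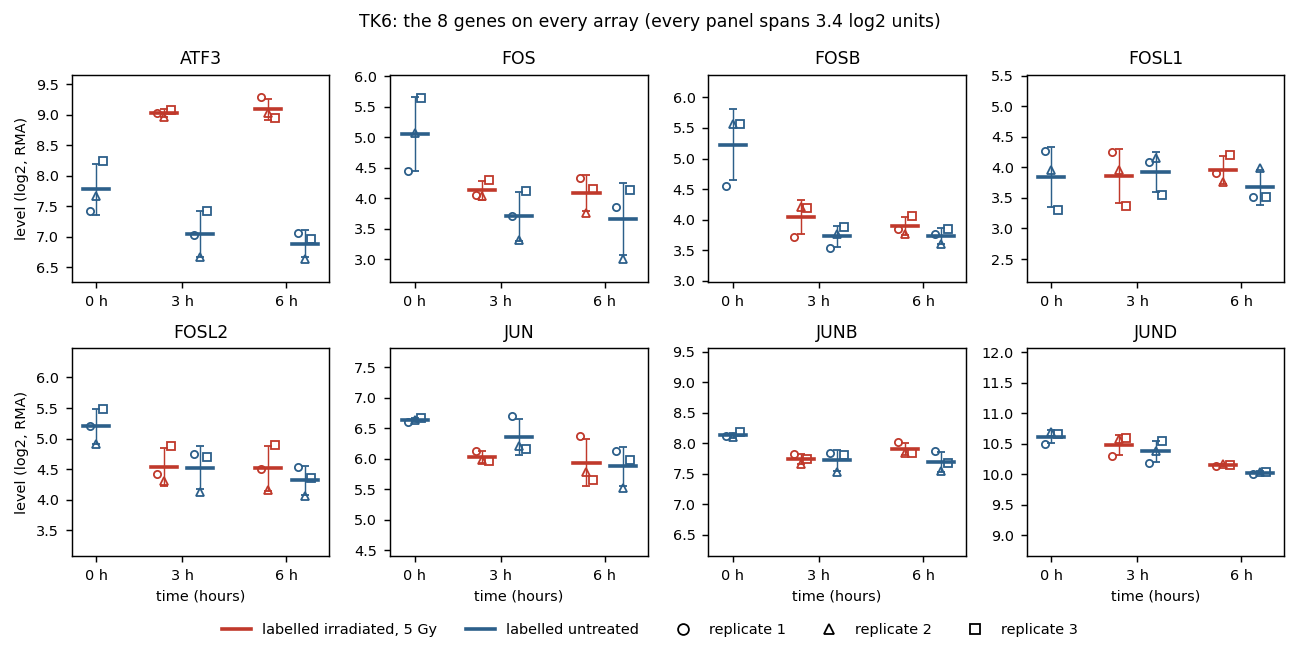
Levels (log2, RMA) of the 8 members on each TK6 array by time in hours and treatment, with the mean (bar) and SD (whisker) of 3 arrays and panels of equal span. Irradiated and untreated arrays part in ATF3, and FOS and FOSB are lower at 3 h and 6 h than at 0 h in both.

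In untreated arrays of U2OS, BJ and the label G361, limma called 0 of 8 members at 3 h or 6 h against 0 h. In BJ 0.0138% of genes were called at 3 h and 0.00691% at 6 h. At an unadjusted p under 0.05 were ATF3 and JUNB at 3 h, beside 805 of 14467 genes, and FOSL1 at 6 h, beside 1061. In U2OS 0% of genes were called at both times, with ATF3 and FOSL2 at an unadjusted p under 0.05 at 3 h beside 888 of 14654 genes. In arrays labelled G361 0% of genes were called and no member had an unadjusted p under 0.05, beside 291 and 282 of 14487 genes. Arrays labelled HepG2 and untreated at 3 h had 0 members and 0% of genes called, with FOSL2, JUN and JUND at an unadjusted p under 0.05 beside 1490 of 14369 genes. In arrays labelled HepG2, ATF3 was higher in those labelled untreated at 6 h than in those at 0 h, at 8.09, 8.16 and 7.98 log2 against 5.75, 6.38 and 6.40 log2. The difference was 3.73-fold (1.90 log2, SE 0.21, limma adjusted p = 4.259e-05), with no overlap, and ATF3 was called without any 1 of the 6 arrays. JUND was higher by 0.62 (SE 0.12, adjusted p = 0.02359), with 9.03, 9.29 and 9.36 log2 at 6 h against 8.30, 8.89 and 8.63 log2 at 0 h. These were 2 of 8 members, beside 0.64% of all genes called and 0.508% as higher. The JUND call was lost without 4 of the 6 single arrays (untreated replicates 2 and 3 at 6 h, replicates 1 and 3 at 0 h) and with probe sets 203751_x_at (0.35, adjusted p = 0.5364) and 214326_x_at (0.47, adjusted p = 0.2664). ATF3 on probe set 1554980_a_at gave 0.76 (adjusted p = 0.08626).

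Arrays labelled HepG2 and irradiated at 6 h stood above those at 0 h in the same 2 genes, ATF3 by 1.17 log2 (SE 0.21, limma adjusted p = 0.004571) and JUND by 0.63 (SE 0.12, adjusted p = 0.01036), beside 1.54% of all genes. JUND was not called there without irradiated replicate 2 or 3 at 6 h, with probe sets 214326_x_at (0.05, adjusted p = 0.9304) and 203751_x_at (0.32, adjusted p = 0.5333), or with the mean of its probe sets (0.26, adjusted p = 0.3143). ATF3 was not called on probe set 1554980_a_at (0.61, adjusted p = 0.1287). At 3 h, arrays labelled irradiated had 0 members called by limma against 0 h, beside 0.452% of genes, 0.397% as higher and 0.0557% as lower. At an unadjusted p under 0.05 was 1 member, FOSL2, beside 1543 of 14369 genes. Between 6 h and 3 h in arrays labelled irradiated, ATF3 was higher by 1.17 log2 (adjusted p = 0.004414), 1 of 8 members beside 0.821% of genes, 0.397% as higher. With the replicate block JUND was also called there (0.45 log2, adjusted p = 0.006997). Leaving out replicate 2 or 3 of every group ended the calls of ATF3 in irradiated arrays (adjusted p = 0.09489 and 0.06228 against 0 h, 0.3324 and 0.4 against 3 h).

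In U2OS, ATF3 was the member called in irradiated cells against 0 h, by 1.49 log2 at 3 h (SE 0.19, limma adjusted p = 0.001627, 1 of 8 members beside 0.116% of genes) and 2.06 at 6 h (adjusted p = 1.542e-05, 0.73% of genes). The call at 3 h was lost without replicate 2 or 3 of every group (adjusted p = 0.1922 and 0.3916), on probe set 1554980_a_at (0.53 log2, adjusted p = 0.9998) and with the mean of the probe sets (0.65, adjusted p = 0.778). At 6 h probe set 1554980_a_at gave 1.50 log2 without a call (adjusted p = 0.06573). In arrays labelled G361 and irradiated, 0 members and 0% of genes were called against 0 h by limma. At 6 h FOSL1 was at an unadjusted p under 0.05 (-0.57 log2), beside 569 of 14487 genes. In BJ at 3 h 0 of 8 members were called against 0 h beside 0.297% of genes. At an unadjusted p under 0.05 were 3 of 8 members, FOS, FOSL2 and JUND, beside 1427 of 14467 genes. The irradiated BJ arrays at 6 h stood above 0 h for ATF3 by 0.82 log2 without a call (limma adjusted p = 0.09362). They stood below it for FOSL1 by -0.84 (adjusted p = 0.05445), with 0 of 8 members and 2.08% of genes called. At an unadjusted p under 0.05 were 5 of 8 members, beside 2048 of 14467 genes. For FOSL1 the levels in BJ were 7.09, 7.27 and 6.76 log2 in irradiated cells at 6 h, against 7.96, 7.82 and 7.87 log2 in untreated cells at 0 h. They did not overlap, and untreated cells at 6 h, at 7.94, 7.02 and 7.19 log2, spanned both.

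At 0 h the lines differed widely in which members they expressed, and 55 of 80 differences between pairs of lines were called by limma, over pairs in which 45.3% to 59.2% of all genes were called. FOSL1 had the widest range. It stood at 9.35, 9.52 and 9.61 log2 in arrays labelled HepG2, 8.53, 8.29 and 8.55 log2 in G361, 7.96, 7.82 and 7.87 log2 in BJ, 6.46, 6.17 and 6.24 log2 in U2OS and 4.26, 3.96 and 3.31 log2 in TK6. All 4 steps of that order were called (adjusted p of 0.03388 or less), and arrays labelled HepG2 stood 5.65 log2 above TK6 (SE 0.23, adjusted p = 1.172e-31). The TK6 mean was near the level limit for testing (3.52 log2) and 1 array was below it, so the size of that difference is a lower bound. For FOSL2 the order was U2OS (mean 8.28 log2), G361 (7.49), BJ (7.43), arrays labelled HepG2 (7.40) and TK6 (5.20). U2OS and TK6 stood apart at either end, and the middle 3 did not differ beyond their spread. All 5 probe sets of FOSL2 had their highest mean over a line in U2OS and their lowest in TK6.

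FOS was highest in G361 at 6.59, 6.37 and 6.23 log2, followed by TK6 at 4.44, 5.07 and 5.64 log2, and both steps down from these were called (adjusted p = 0.000188 and 0.005567). U2OS, BJ and arrays labelled HepG2, with means of 4.06, 4.02 and 3.9 log2, did not differ beyond their spread. G361 exceeded arrays labelled HepG2 5.66-fold (SE 0.31 log2, limma adjusted p = 3.689e-10). FOSB was higher in TK6 (mean 5.23 log2) than in U2OS, the next (1.58 log2, SE 0.18, adjusted p = 8.124e-12), and neighbours among the other 4 lines did not differ beyond their spread.

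JUN split the lines in a different way. It stood at 9.40, 9.53 and 9.45 log2 in arrays labelled HepG2, 9.24, 9.0 and 9.06 log2 in U2OS and 9.45, 8.90 and 8.92 log2 in BJ, neighbours that did not differ beyond their spread. TK6 followed at 6.61, 6.64 and 6.66 log2 and G361 at 5.67, 5.72 and 5.18 log2, and both steps were called (limma adjusted p = 4.408e-17 and 3.091e-06). G361 was lower than arrays labelled HepG2 by 3.94 log2 (SE 0.20, adjusted p = 2.102e-26), and all 4 probe sets of JUN had their highest mean over a line in arrays labelled HepG2 and their lowest in G361. JUNB was higher in TK6, at 8.11, 8.10 and 8.18 log2, than in the other lines, whose means were 6.17 to 6.51 log2 (adjusted p = 2.033e-17 for TK6 against BJ, the next). JUND was lower in arrays labelled HepG2, at 8.30, 8.89 and 8.63 log2, than in G361, the next line up, at 10.01, 10.24 and 9.85 log2 (adjusted p = 1.324e-13), and no neighbours among the other lines differed beyond their spread.

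ATF3 at 0 h was highest in TK6 (mean 7.78 log2) and U2OS (7.63), which did not differ beyond their spread (limma adjusted p = 0.6894). Arrays labelled HepG2 (6.18) and G361 (5.87) followed, and did not differ beyond their spread (adjusted p = 0.4075), and BJ was lowest at 4.08, 4.86 and 4.57 log2. TK6 exceeded BJ 9.67-fold (3.27 log2, SE 0.28, adjusted p = 3.081e-16). The range of the 5 line means was 5.65 log2 for FOSL1, 4.23 for JUN and 3.61 for ATF3, and the largest range of group means within a line was 0.84, 0.76 and 2.53. For FOSB the range was 0.64 log2 between lines, and its largest range within a line was that of TK6, where its 0 h level stood above the later ones.

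**Figure D5:**
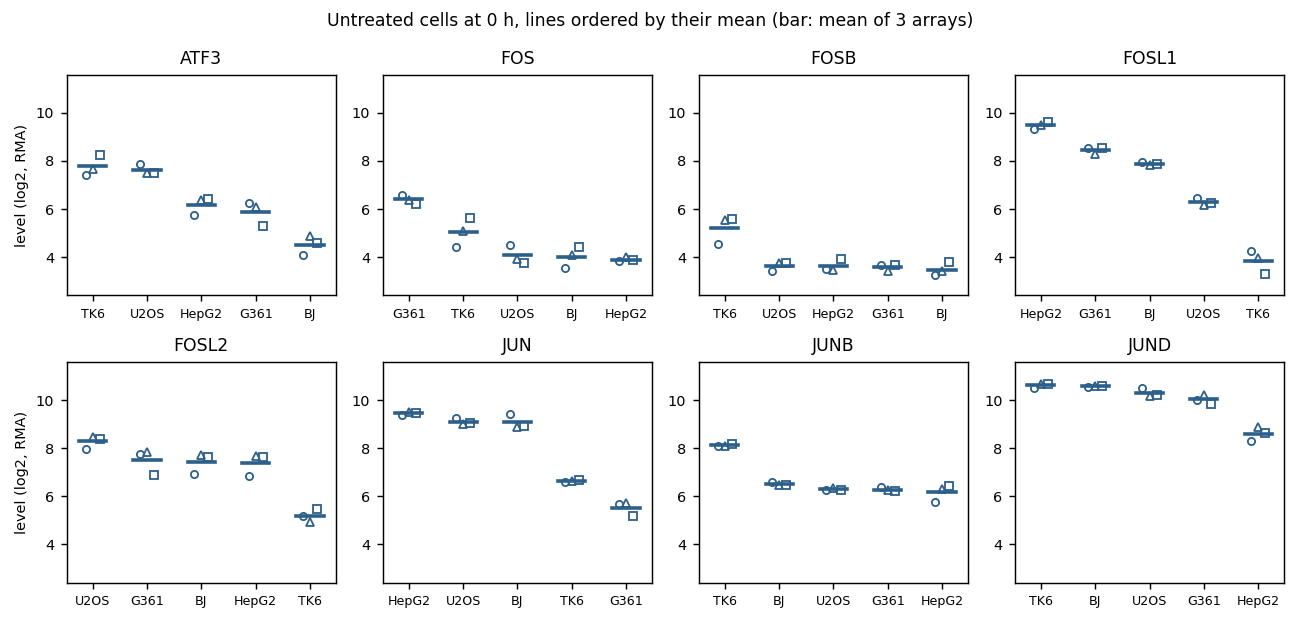
Levels (log2, RMA) of the 8 members in untreated cells at 0 h, with 3 arrays (points) and their mean (bar) per line. FOSL1 runs from 9.49 log2 in arrays labelled HepG2 to 3.85 log2 in TK6.

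Genes around AP-1 were counted from 4 lists, of which 18 to 21 genes each were tested in TK6 apart from the phosphatases, with 16. The lists were bZIP partners of AP-1, MAP kinases with serum response factors that feed into it, phosphatases and feedback genes that restrain MAP kinases, and genes known as AP-1 targets. In TK6 at 3 h, 1 of 21 partners fell, ATF2 (-0.51 log2, SE 0.13), and 1 of 21 inputs fell, the kinase gene MAP3K1 (-0.58, SE 0.12). Of 16 phosphatases and feedback genes 2 rose, PPM1D (1.68, SE 0.11) and DUSP14 (1.27, SE 0.12), and 2 fell, the Ras pathway inhibitor gene SPRY2 (-0.52) and DUSP7 (-0.51). Of 18 AP-1 targets 1 rose, the cytokine gene LIF (1.55, SE 0.16). All had limma adjusted p of 0.02812 or less. Over all genes 1.88% were called higher and 2.11% lower, and 1 gene of a list of 18 to 21 is near those shares. The medians of the lists were 0.02, -0.04, -0.25 and 0.08 log2, beside 0.01 over all genes.

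At 6 h in TK6, 3 of 21 partners were higher in irradiated than in untreated cells. They were CEBPB (1.02 log2, SE 0.11), the stress factor gene DDIT3 (1.10, SE 0.16) and ATF4, which drives the integrated stress response (0.28, SE 0.07). BATF3, a lymphoid partner of Jun proteins, was lower by 0.72 (SE 0.13). The untreated cells had themselves moved from 0 h, DDIT3 by -0.82, ATF4 by -0.59 and BATF3 by 0.77. Against 0 h, irradiated cells at 6 h were higher in CEBPB (0.65, limma adjusted p = 0.0005918) but lower in ATF4 (-0.31, adjusted p = 0.007953). The kinase gene MAPK13 (0.46), PPM1D (1.63), DUSP14 (1.02) and LIF (1.14) rose and SPRY2 fell by 0.39, all with a limma adjusted p of 0.03769 or less. Over all genes 4.01% were called higher and 2.23% lower, and the single calls of inputs and targets are near those shares. The medians were 0.05, 0.08, 0.11 and 0.19 log2 for partners, inputs, phosphatases and targets, beside 0.01 over all genes. In U2OS, PPM1D rose by 1.11 log2 at 3 h and 1.33 at 6 h, and in BJ it rose by 1.69 at 3 h (SE 0.13 to 0.16, adjusted p of 0.003018 or less). PPM1D, a phosphatase that acts on stress kinases and on p53, is also in the list of p53 targets. It was the 1 gene of the 4 lists called in these lines against untreated cells of the same time. In that comparison 0 were called in BJ at 6 h or in arrays labelled HepG2 and G361. Against 0 h, PPM1D was higher in arrays labelled HepG2 at 6 h, both untreated (1.56 log2, SE 0.14) and irradiated (1.27, SE 0.14). It was also higher against 0 h in irradiated BJ at 6 h (0.81, SE 0.13, limma adjusted p of 0.004327 or less for each).

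In untreated TK6 cells at 6 h against 0 h, 6 of 16 phosphatases and feedback genes were lower and 0 higher. Among them were the MAP kinase phosphatase genes DUSP10 (-0.92 log2, SE 0.20), DUSP1 (-0.78, SE 0.18) and DUSP16 (-0.48) and the Ras pathway inhibitors SPRED2 (-0.58) and SPRY2 (-0.39), with limma adjusted p of 0.0112 to 0.04193. Of 21 bZIP partners 5 were lower, among them MAFF (-1.11, SE 0.24), DDIT3 (-0.82) and ATF4 (-0.59), and 2 were higher, BATF3 (0.77) and ATF5 (0.71). Of the inputs 1 of 21 was lower, MAP3K5 (-0.61), and of the AP-1 targets the protease gene MMP9 was higher (0.99) and VEGFA lower (-0.54). Over all genes 3.35% were called lower and 1.81% higher, and the single calls of inputs and targets are near those shares. The medians of partners, inputs, phosphatases and targets were -0.09, 0.06, -0.40 and 0.12 log2, beside 0.01 over all genes. These calls depend on single replicates: without replicate 2 or 3 of every group limma called 29 and 14 genes in all, against 734 with all arrays.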

How the data were processed

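Total RNA was hybridised as biotinylated cRNA to 75 single-sample arrays, 3 in each of 25 groups taken from the labels. The deposited values are log2 levels. The submitters' processing notes name RMA, with its version and the set of arrays normalized together not given in the sources used here. RMA sets arrays to a common distribution, so changes shared by most genes are not seen, and no presence call was used. Probe sets were named through the platform table (41097 with 1 symbol, 1801 with several, 11777 unnamed), and the last 2 kinds were left out. A gene was represented by its brightest probe set over the series, and genes with a line mean above the 40th percentile of probe sets were tested, which all 8 members passed in all lines.

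Each line's 15 arrays were fitted with 5 group means in limma 3.58.1 (R 4.3.3), with eBayes and a trend. Adjusted p-values are Benjamini-Hochberg values over all genes tested in a line. Differences between lines came from 1 fit of 75 arrays and 16027 genes past the filter in at least 1 line. The number of arrays, 3 a group, limits the precision. The code was tested on simulated data. The members, lists and tests were chosen with earlier results of these data known. The genes named besides the members are the 5 whose levels correlated best with each member and at most 5 called genes per list and comparison with the smallest adjusted p. Replicate numbers come from the labels and were taken to pair arrays where same-numbered arrays, after group means were removed, correlated above 0.1 in every pair. This held for irradiated against untreated arrays except in arrays labelled HepG2 at 3 h (lowest 0.096) and in BJ at 6 h (lowest -0.031). It held in TK6 for all comparisons except untreated 3 h against 0 h (lowest 0.063). In arrays labelled HepG2 it also held for untreated 3 h against 0 h and for 6 h against 3 h after irradiation. The main tests, and the shares of all genes given with them, did not use this pairing. For irradiated against untreated cells in TK6, limma called 1203 genes at 3 h and 1868 at 6 h with the replicate block, against 568 and 887 without. In U2OS it called 36 and 157, against 13 and 94.

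Alternatives were no level filter, quantile normalization, the mean of a gene's probe sets, each other probe set of a member, 1 fit of all arrays, the compared arrays alone, the replicate block, no variance trend, and leaving out replicates. Promoter windows are RefSeq's, and figures were drawn with matplotlib 3.10.9.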

Additional observations from a re-analysis of the deposited data

Results flagged for a closer look

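The difference in ATF3 between arrays labelled irradiated and untreated was not of the same size in the 5 lines. The moderated F test of limma over all 75 arrays gave adjusted p = 5.104e-07 at 3 h and 2.988e-08 at 6 h. The differences behind it, irradiated minus untreated, were 1.98 log2 at 3 h and 2.20 at 6 h for TK6, 1.97 and 1.93 for U2OS, 1.23 and 0.61 for BJ, -0.35 and -0.73 for arrays labelled HepG2, and -0.45 and -0.36 for arrays labelled G361. In arrays labelled HepG2 the score of p53 targets was higher when labelled irradiated at 6 h (1.02 to 1.11, against 0.85 to 0.90 when labelled untreated), while ATF3 was lower. At 3 h in those arrays, and at both times in arrays labelled G361, the scores of the 2 labels overlapped. The part of the score in the difference was not tested.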

How the results depend on the processing

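Of 181 alternative counts of called members, 165 were within 1.5 times the main count. For irradiated against untreated cells of the same time the main count was 5. It was 2 with ATF3 read from probe set 1554980_a_at, 0 with probe set 1554420_at (below the level limit and not tested) and 4 to 6 without replicate 1, 2 or 3 of every group. For untreated cells against 0 h the main count was 11, and 1 to 13 without a replicate number. For irradiated cells against 0 h it was 12, 19 with the replicate block, 7 with ATF3 probe set 1554420_at and 3 to 19 without a replicate number. For irradiated cells at 6 h against 3 h it was 1, 2 after quantile normalization, 3 with the replicate block, 0 with either ATF3 probe set 1554980_a_at or 1554420_at, and 0 to 6 without a replicate number. The cause of these moves was not tested. JUN in irradiated TK6 cells at 6 h against 0 h was called lower (-0.70 log2) but stood at 0.22 with probe set 201465_s_at (adjusted p = 0.6396). The counts for differences of the irradiation effect between lines and between times were 2 and 0 under every alternative run for them. For 0 h levels between pairs of lines the main count was 55, and 48 to 60 under the alternatives. Single log2 changes were followed for irradiated against untreated cells of the same time, and for other comparisons only where the main fit called them. Of these alternatives, 1578 kept their side of the threshold, 116 lost a call and 5 gained one. Calls gained in comparisons with 0 h or between times that the main fit did not call are not in this tally.

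With the replicate block, calls where the numbers do not pair the arrays were gained by ATF3, FOSL2, JUNB and JUND in untreated TK6 at 3 h against 0 h (adjusted p = 0.01072, 0.01253, 0.01038 and 0.03898), by FOSL2 in arrays labelled HepG2 at 6 h against 0 h (untreated 0.009918, irradiated 0.003003) and by ATF3 and FOSL1 in irradiated BJ at 6 h against 0 h (0.04753 and 0.03179). Beside these and those given with the results, the block changed no other call.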
